A study of Arabidopsis thaliana with 22 samples.

Results

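The first hour after 0 h of a light and dark cycle was described in leaves of Arabidopsis thaliana, by setting the 2 arrays at 1 h against the 4 arrays at 0 h and 24 h, which stand for the same clock hour. These 6 arrays were chosen by the hour in their source names, out of 22 arrays at 11 time points with 2 biological replicates each, and the 2 arrays at 2 h were used to ask whether the changes lasted. All 22746 probe sets other than controls were compared, a probe set being the group of array probes that reports a transcript as 1 intensity value. Every group consisted of wild-type Col-0 plants with no treatment beside the cycle named in the labels, grown on compost at 20 °C with 12 h light and 12 h dark, and harvested at growth stage 3.90 as a pool of 20 plants. Groups therefore differed by the label of the harvest hour alone, which is 0, 1, 2 or 24 h here. Which of light and dark began at 0 h is not said in the labels, so no change is assigned to either.

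Leaves change their transcripts within minutes to hours of a switch between light and dark, because light receptors, the circadian clock and the supply of sugar from photosynthesis all act on transcription and on RNA decay. When photosynthesis stops, leaves live on stored starch, and the kinase SnRK1, a sensor of low energy, switches on genes of nutrient recycling. Leaf cells also grow at rates that follow the daily cycle. Growth needs the wall to be loosened by expansins and xyloglucan endotransglucosylases, and it is watched by receptor kinases at the cell surface.

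The labelled tissue was checked against its markers. The 7 leaf markers measured, genes of light harvesting, photosystems and Rubisco activase, had means from 1480 to 3940 at 0 and 24 h, whereas the 3 root markers had means from 12.6 to 29.9. OLEO3, an oil body protein of seeds, had a mean of 21.8, and none of these 11 markers was at 0 or passed the test at 1 h. Intensity has no unit, and the bacterial control probe sets, which should have no target in leaf RNA, lay at 2 in the median and reached 29.2. Measures of array and RNA quality moved with the 1 h arrays. Actin signal from the 3′ end over that from the 5′ end, a ratio that is higher in degraded RNA, was 2.52 and 6.31 at 1 h (series 1, then series 2, as in all pairs of values here), against 1.62 and 2.5 at 0 h and 1.67 and 4.15 at 24 h, and the value of 6.31 was the highest of the 22 arrays. The scanner background was 80.64 and 82.5 at 1 h against 66.25 to 70.78 at 0 and 24 h, and the part of both in the results was not tested beyond the alternatives given. Within the baseline, 24 h against 0 h gave 0 calls with limma and 1400 probe sets (6.15%) at an unadjusted p under 0.05. In whole leaves, fewer cells of a type and less RNA per cell cannot be told apart.

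Of the leaf transcripts that passed the test at 1 h, most were higher, although over all probe sets more lay below than above the baseline. At 1 h, 996 of the 22746 probe sets (4.38%) differed from the baseline at a limma adjusted p under 0.05, the rule for a call throughout. Of these, 667 were higher (2.93% of all) and 329 lower (1.45%). Large changes were more common among rises. Of the 667 rises, 402 were at least 2-fold (1.77% of all probe sets) and 87 at least 4-fold, and of the 329 falls, 84 were at least 2-fold (0.369% of all) and 4 at least 4-fold. The median difference of all probe sets was -0.086 on the log2 scale. The probe sets that rose had a median baseline intensity of 76.8 and those that fell 128, against 42.2 for all, and 100 of the 667 risers started from a baseline mean at or below the highest bacterial control. The sign of all 996 was the same within series 1, within series 2, and against 0 h or 24 h alone. The 996 were called on these same arrays, so the choice itself favours this sameness, which is no replication. Against 0 h alone 503 (2.21%) were called and against 24 h alone 737 (3.24%; 2.11% higher and 1.13% lower), and these comparisons share the 1 h arrays. Both 1 h arrays lay above all 4 baseline arrays for 632 of the 667 risers and below them for 287 of the 329 fallers. Over all probe sets 8.38% lay above and 12.8% below. The rises cover 334 genes with a name of their own and the falls 164, and 321 rising and 155 falling probe sets are unnamed here.

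These counts leaned on the 1 h array of series 1 and on the pairing of the replicate series. Without the 1 h array of series 1 the count was 208, without that of series 2, which has the high actin ratio, it was 685, and without the 0 h array of series 1 it was 643, with 728 to 747 for the other 3 baseline arrays. With the actin ratio as a covariate 289 were called, without the 3 arrays of the highest actin ratio (6.31, 4.15 and 4.01) 530, and without the replicate series as a block 436. Of the 95 called genes checked one by one, 32 kept their call with the actin covariate, 23 without the 1 h array of series 1 and 68 without that of series 2.

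**Figure D1:**
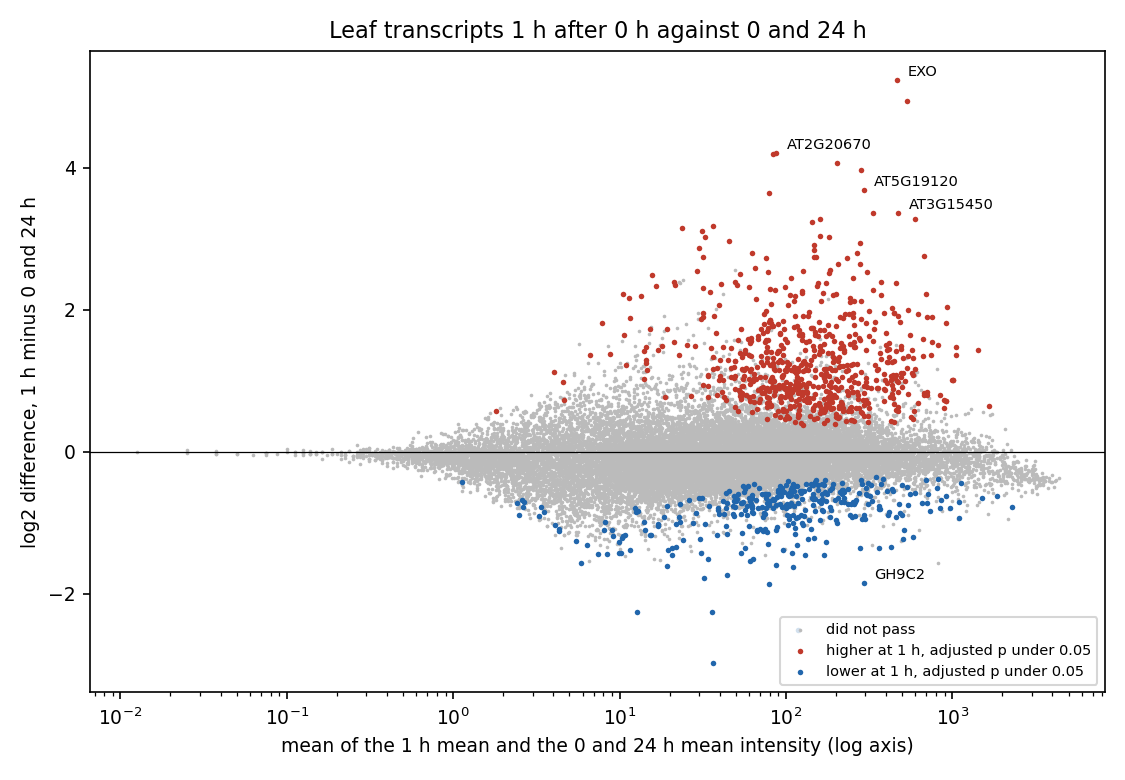
Each point is 1 of 22746 probe sets. The horizontal axis is the mean of the 1 h mean and the 0 and 24 h mean intensity on a log axis, and the vertical axis the log2 difference (1 h minus 0 and 24 h, on log2 of intensity plus 4). The 667 rises (red) reach 5.24 at EXO among named genes, whereas the falls (blue) are mostly within a 2-fold change, and points at the lowest intensities stay close to 0 because of the added 4.

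Among named genes the largest fitted rise was that of EXO (EXORDIUM), a cell wall protein gene known to promote leaf cell expansion and to respond to brassinosteroids. Its intensity was 11.1 and 43.7 at 0 h, 12.2 and 25.8 at 24 h, and then 915.3 and 907.9 at 1 h. Both 1 h arrays stood far above all 4 baseline arrays and close to each other, a log2 difference of 5.24 ± 0.36 (SE; n = 2 against 4 arrays; adjusted p = 6.38e-06). Its baseline mean of 23.2 is under the highest bacterial control of 29.2, so the size of the rise is uncertain, and over the alternatives it ran from 3.94 to 5.65. The same holds for EXLA1, XTH33, BZIP61, AT2G20670, AT1G50040, AT3G62950 and AT4G28085 among the 15 largest rises, whose baseline means were 3.92 to 25.9. The call of EXO was kept without either 1 h array (adjusted p 0.000897 and 0.000191). EXO measured 264.6 and 168.6 at 2 h, 826.8 and 859.3 at 13 h, and had a mean of 14 at 20 h. EXO was thus high at 1 h and again 12 h later.

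Other genes of wall loosening rose beside EXO. EXLA1, which encodes an expansin-like protein, measured 30.4 and 24.3 at 0 h, 26.2 and 22.7 at 24 h, and then 374.8 and 215.1 at 1 h, again with no overlap between the groups (3.27 ± 0.48; adjusted p = 0.00127). Its relative EXLA2 was near the bacterial control level at baseline, with 2.8 and 9.9 at 0 h, 2.2 and 2.6 at 24 h, and measured 24.2 and 52.7 at 1 h (2.34 ± 0.41; adjusted p = 0.00455). XTH33, a xyloglucan endotransglucosylase/hydrolase, which cuts and rejoins the xyloglucan chains between cellulose fibres, measured 32 and 2.3 at 0 h, 7.5 and 16.8 at 24 h, and then 154 and 66.9 at 1 h (2.79 ± 0.67; adjusted p = 0.0277). The 1 h arrays of EXLA2 and XTH33 lay above every baseline array, but those of XTH16, another member of this enzyme family, overlapped the baseline, with 23.4 and 62.2 at 0 h, 9.1 and 33.6 at 24 h, and then 53 and 110.1 at 1 h (1.39 ± 0.28; adjusted p = 0.00961). In all, 5 of the 28 genes on the wall loosening list rose and none fell, against 2.93% higher and 1.45% lower over all probe sets. The list median was 0.02 against -0.086 over all probe sets. This list was matched by symbol or locus code and does not hold EXGT-A3, a related gene described below. The 23 that did not pass ran from EXPA8, an expansin, at -0.96 to XTH18 at 2.37 (adjusted p 0.237 and 0.0742). Leaving out the 1 h array of series 1 ended the calls of EXLA1 (adjusted p 0.053), EXLA2 (0.0599), XTH16 (0.154) and XTH33 (0.344). Leaving out that of series 2 ended those of EXLA2 (0.0544), XTH16 (0.0549) and XTH33 (0.0562), and XTH33 was also lost without the 0 h array of series 2 (0.0732) or the 24 h array of series 1 (0.0849). Without the replicate block the call of XTH16 ended (0.422). EXLA2 (0.1), XTH16 (0.228) and XTH33 (0.151) were not called with the actin ratio as a covariate, whereas EXLA1 was (0.0288).

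The most evenly measured rises of wall genes were smaller. Of those described here, THE1, EXGT-A3 and SKU5 stand on no gene list and were picked from the called genes after their values were seen. THE1 (THESEUS1), a receptor kinase that senses the state of the wall, measured 67.7 and 74.2 at 0 h, 58.7 and 68.5 at 24 h, and then 220.2 and 281 at 1 h (1.83 ± 0.16; adjusted p = 3.85e-05). EXGT-A3, an endoxyloglucan transferase also called XTH27, measured 305 and 255.8 at 0 h, 221.1 and 284.1 at 24 h, and then 918.8 and 762.7 at 1 h (1.65 ± 0.18; adjusted p = 0.000186). CSLA03, of the cellulose synthase-like family that makes mannans, measured 42.6 and 31.5 at 0 h, 24.6 and 27 at 24 h, and then 104.1 and 104 at 1 h (1.63 ± 0.21; adjusted p = 0.000445). In each of these 3 genes both 1 h arrays were above all baseline arrays, and the call was kept without either 1 h array (adjusted p at most 0.0216). CSLC04, which builds the glucan backbone of xyloglucan, rose from a mean of 343 to 649 (0.92 ± 0.15; adjusted p = 0.00233), and TBL45, of a family of wall O-acetyltransferases, from 171 to 351 (1.09 ± 0.22; adjusted p = 0.0127). SKU5, a surface glycoprotein known for directional root growth, rose from 322 to 663 (1.05 ± 0.16; adjusted p = 0.0015), and both of its 1 h arrays were above the baseline. Of the 46 genes on the wall synthesis and modification list 3 rose (CSLA03, CSLC04 and TBL45) and 1 fell. Over all probe sets 2.93% were higher and 1.45% lower. The list median was -0.07 against -0.086 over all probe sets. The calls of CSLC04 (adjusted p 0.0814) and TBL45 (0.257) ended without the 1 h array of series 1, and that of SKU5 was kept (0.041). Without the replicate block TBL45 (0.28) and SKU5 (0.13) were not called, nor was TBL45 with the actin ratio as a covariate (0.101).

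RALFL33, RALFL22 and ATPMEPCRB, which were picked from the called genes after their values were seen and stand on no gene list, are known for signalling to the wall or for its pectin. RALFL33, a rapid alkalinization factor peptide, of a family whose receptors are relatives of THE1, measured 322.8 and 255.2 at 0 h, 291 and 275.4 at 24 h, and then 834.9 and 619.1 at 1 h (1.32 ± 0.19; adjusted p = 0.00106). RALFL22, a second such peptide, rose from a mean of 69.4 to 153 (1.13 ± 0.21; adjusted p = 0.00631), and ATPMEPCRB, a pectin methylesterase, from 80.6 to 277 (1.78 ± 0.39; adjusted p = 0.0169). RALFL22 (adjusted p 0.113) and ATPMEPCRB (0.155) were not called with the actin ratio as a covariate. The groups did not overlap in any of the 3 genes. Their calls ended without the 1 h array of series 1 (adjusted p 0.0528, 0.186 and 0.266) and were kept without that of series 2, and without the replicate block RALFL22 (0.101) and ATPMEPCRB (0.0613) were not called.

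**Figure D2:**
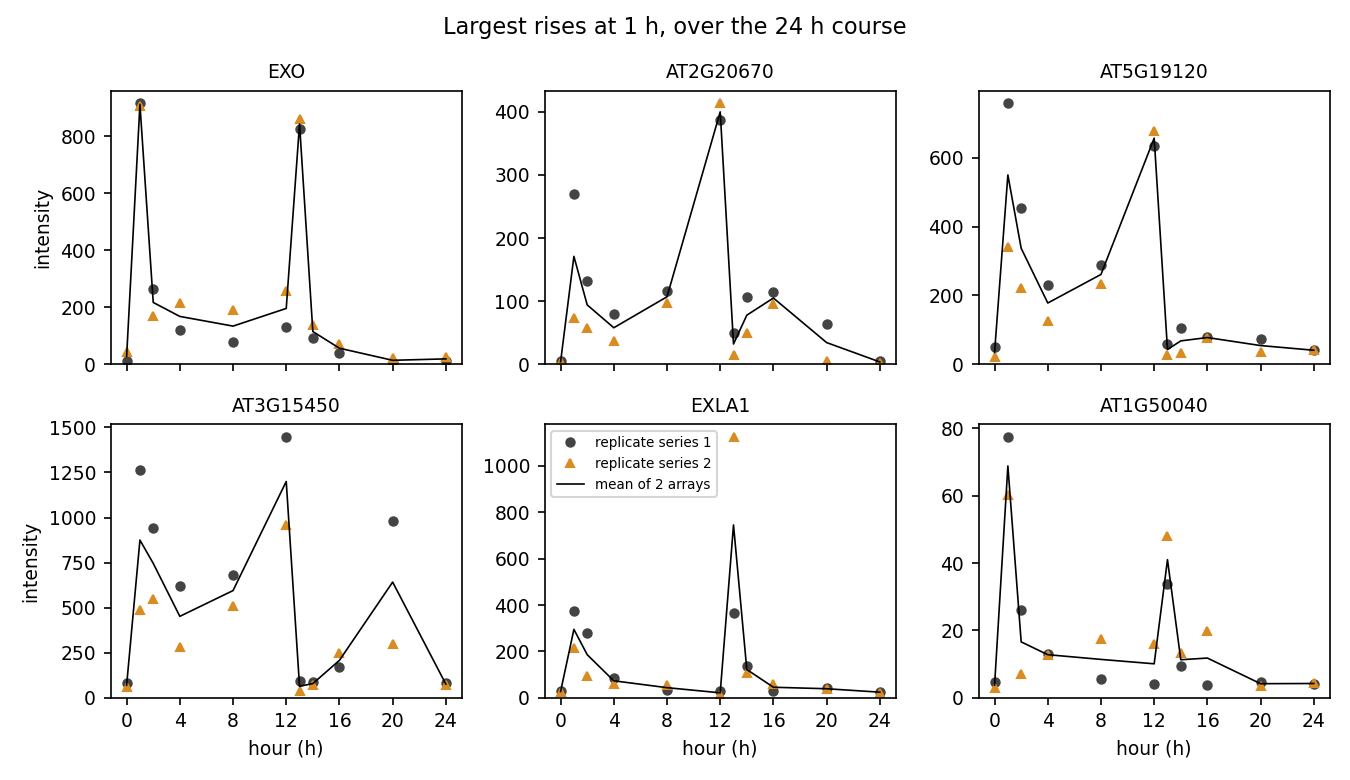
Intensity over the 24 h course for the 6 named genes with the largest rises at 1 h. Points are single arrays (circle, series 1; triangle, series 2), lines the mean of 2 arrays, and each panel has its own linear axis from 0. EXO, EXLA1 and AT1G50040 are high at 1 h and again at 13 h, whereas AT2G20670, AT5G19120 and AT3G15450 are high at 1 h and at 12 h and have lower values at 13 h than at 12 h.

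AT3G15450, AT2G20670 and AT5G19120 rose at 1 h, had their highest means at 12 h and had lower means at 13 h, and their courses after that differed. AT3G15450, on the list of genes known to respond to darkness and low sugar, measured 83.3 and 57.8 at 0 h, 81.1 and 71.1 at 24 h, and then 1265.2 and 485.2 at 1 h (3.36 ± 0.33; adjusted p = 7.54e-05). It was still 940.4 and 550.6 at 2 h, reached a mean of 1200 at 12 h stood at 63.9 at 13 h and was at 642 again at 20 h. AT2G20670 and AT5G19120 have locus codes and no symbol in RefSeq. AT2G20670 measured 4.8 and 3.4 at 0 h, 5.1 and 2.4 at 24 h, and then 269.2 and 73.6 at 1 h, with a mean of 400 at 12 h, 32.2 at 13 h and 105 at 16 h (4.21 ± 0.46 at 1 h; adjusted p = 0.000174). Its baseline values are close to the median of the bacterial controls, and the fitted rise ran from 2.09 to 4.89 over the alternatives. AT5G19120 measured 49.5 and 20.1 at 0 h, 41.3 and 40.2 at 24 h, and then 758.4 and 342.1 at 1 h, with 657 at 12 h, 43 at 13 h and 54.4 at 20 h (3.68 ± 0.3 at 1 h; adjusted p = 2.29e-05). In all 3 genes the 1 h array of series 1 was higher than that of series 2, and both lay above every baseline array. Their calls were kept without either 1 h array and with the actin ratio as a covariate (adjusted p at most 0.0123).

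AKINBETA1, a β subunit of the SnRK1 kinase, was also raised. It measured 67.9 and 66.4 at 0 h, 93.6 and 65.7 at 24 h, and then 310 and 131.2 at 1 h and 350.7 and 242.7 at 2 h, above the baseline on every array (1.43 ± 0.23 at 1 h; adjusted p = 0.0023). Without the 1 h array of series 1 its difference was 0.99 (adjusted p = 0.102). Of the 7 darkness and low-sugar genes measured, AKINBETA1 and AT3G15450 rose and none fell, against 2.93% higher and 1.45% lower over all probe sets. The list median was 0.29 against -0.086 over all probe sets. The other 5, genes of amino acid breakdown or of the electron transfer that serves it, lay between -0.29 (D2HGDH) and 0.39 (MCCA), with adjusted p from 0.286 to 0.973. SDP1, a lipase that releases fatty acids from stored oil, rose from a mean of 47.4 to 89.2 (0.87 ± 0.16; adjusted p = 0.00509). It stands on no gene list and was picked after its value was seen. It was not called with the actin ratio as a covariate (0.194). Its call ended without the 1 h array of series 1 (0.0605) or series 2 (0.0648).

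ATG8E is a ubiquitin-like protein that coats the membranes of autophagy, the recycling of cell contents. It was the sole autophagy gene of 10 to pass, against 2.93% higher and 1.45% lower over all probe sets. It measured 79.4 and 100.8 at 0 h, 80.2 and 91.7 at 24 h, and then 462.8 and 327.2 at 1 h, with 1 h values above every baseline array (2.1 ± 0.29; adjusted p = 0.000741), and 451.1 and 320.7 at 2 h. The other 9, among them 8 further genes of the ATG8 family, lay between -0.2 and -0.03 (adjusted p from 0.597 to 0.954). ATG8E kept its call without either 1 h array (adjusted p 0.0391 and 0.00303) and with the actin covariate (0.00931).

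Of the touch, calcium and jasmonate list 2 of 7 genes rose and none fell, and of the WRKY list 1 of 6 rose, against 2.93% higher over all probe sets. CML38, a calmodulin-like calcium sensor, measured 7.6 and 18 at 0 h, 6.7 and 11.6 at 24 h, and then 75.2 and 64.7 at 1 h (2.36 ± 0.48; adjusted p = 0.0111). CML42, a second sensor of this family, rose from a mean of 132 to 262 (0.92 ± 0.24; adjusted p = 0.0458). The groups did not overlap in either gene, and the median of the 7 list members was 0.92 against -0.086 over all probe sets, with means above the highest bacterial control in 4 of the 7. WRKY53, a transcription factor known for leaf senescence and defence, was the riser among 6 WRKY genes. It measured 83 and 107 at 0 h, 49.9 and 98.5 at 24 h, and then 172 and 202.4 at 1 h (1.16 ± 0.19; adjusted p = 0.00244). BIK1, a cytoplasmic kinase of immune receptors that stands on neither list and was picked after its value was seen, rose from a mean of 67.6 to 130 (0.88 ± 0.18; adjusted p = 0.0142). CML38 (adjusted p 0.087), CML42 (0.131), WRKY53 (0.0676) and BIK1 (0.0724) were not called with the actin ratio as a covariate. All 4 calls ended without the 1 h array of series 1 (adjusted p 0.21, 0.579, 0.102 and 0.303). That of CML42 also ended without any 1 of the 4 baseline arrays (adjusted p 0.0866 and 0.109 for 0 h, and 0.105 and 0.0855 for 24 h), and without the replicate block CML42 (0.0846) and WRKY53 (0.182) were not called.

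Among transcription factors, 5 of the 19 genes on the bZIP and bHLH list rose and 1 fell, against 2.93% and 1.45% of all probe sets. BZIP61 measured 17.3 and 27.8 at 0 h, 13.1 and 10.4 at 24 h, and then 99.6 and 168.1 at 1 h (2.72 ± 0.41; adjusted p = 0.00162), and its close relative BZIP34 was near the control level at baseline and measured 14.7 and 26.7 at 1 h (1.89 ± 0.46; adjusted p = 0.0299). BZIP53, known to activate genes of amino acid breakdown under low energy, measured 218.8 and 284.9 at 0 h, 218.2 and 359.2 at 24 h, and then 393.4 and 618.2 at 1 h (0.89 ± 0.14; adjusted p = 0.00162). All of these 1 h values lay above every baseline array. BZIP60 and BZIP17, both known from the stress response of the endoplasmic reticulum, moved in opposite directions, BZIP60 from a mean of 269 to 545 (0.97 ± 0.2; adjusted p = 0.0125) and BZIP17 from 148 to 97.2 (-0.58 ± 0.14; adjusted p = 0.0275). The same was true of bHLH121 and PYE (POPEYE), 2 bHLH factors of the response to iron shortage. The first rose from 62.2 to 119 (0.9 ± 0.12; adjusted p = 0.000671), and the second fell from 107 to 64.2 (-0.68 ± 0.18; adjusted p = 0.0432). PYE stands outside the list of 19 and was picked from the called genes after its value was seen. BZIP61, BZIP53 and bHLH121 kept their calls without either 1 h array. BZIP60 lost its call without the 1 h array of series 1 (adjusted p 0.301), and BZIP34, BZIP17 and PYE each lost theirs with 5 of the 6 arrays left out in turn (highest adjusted p 0.22, 0.202 and 0.358). Without the replicate block BZIP53 (0.111), BZIP34 (0.117), BZIP17 (0.152) and PYE (0.258) were not called, and with equal array medians BZIP17 (0.0556) and PYE (0.0659) were not. BZIP53 (0.129), BZIP60 (0.0519), BZIP34 (0.255), BZIP17 (0.222) and PYE (0.181) were not called with the actin ratio as a covariate, whereas BZIP61 and bHLH121 were.

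AT5G61590, annotated in RefSeq as DEWAX, a repressor of wax synthesis, was among the 15 largest rises. It measured 197.3 and 143 at 0 h, 157.8 and 189.7 at 24 h, and then 1289.2 and 1076.1 at 1 h and 823.5 and 896.5 at 2 h, all above every baseline array (2.76 ± 0.44 at 1 h; adjusted p = 0.00232). GT2, a trihelix DNA-binding factor, rose from a mean of 42.2 to 112 (1.32 ± 0.24; adjusted p = 0.00577), and BPC1, which binds GA repeats, from 22.2 to 45.7 (0.93 ± 0.19; adjusted p = 0.0129). IAA18, a repressor of auxin responses, was the sole riser of 15 auxin genes, from 148 to 228 (0.6 ± 0.13; adjusted p = 0.0193). Over all probe sets 2.93% were higher, and 3 of the 15 auxin genes had a mean above the highest bacterial control. GT2 and BPC1 stand on no gene list and were picked after their values were seen. BPC1 (adjusted p 0.235) and IAA18 (0.243) were not called with the actin ratio as a covariate. Without the 1 h array of series 1 the calls of AT5G61590 (adjusted p 0.0931), GT2 (0.184), BPC1 (0.112) and IAA18 (0.0762) ended, and without that of series 2 those of BPC1 (0.118) and IAA18 (0.21). IAA18 was also lost without the 0 h array of series 1 (0.0537) or the 24 h array of series 2 (0.0643), and without the replicate block (0.0769).

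The remaining largest rises are genes known here by locus code. AT1G50040, AT3G62950 and AT4G28085 rose from baseline values of at most 10.9, under the highest bacterial control, to between 36.6 and 81.8 at 1 h, with log2 differences of 3.18, 3.02 and 2.86. AT3G01830, AT1G19020, AT2G25735 and AT3G06070 rose from baseline means of 33.9 to 68.6 to 1 h means of 260 to 489, with log2 differences from 2.56 to 3.04. The groups did not overlap in any of these 7 genes (adjusted p from 0.00085 to 0.0108). AT1G50040 (adjusted p 0.0597), AT3G01830 (0.119), AT1G19020 (0.0589) and AT4G28085 (0.122) were not called with the actin ratio as a covariate. Of the 7, AT3G62950 kept its call without the 1 h array of series 1 (adjusted p 0.0297), and the others did not (adjusted p from 0.058 to 0.253). Of all 15 largest rises, 6 kept their call without the 1 h array of series 1 and 14 without that of series 2.

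TET8, HHP2, SEC15B, APS3, MSRB5 and nad4 are single genes, picked from the called genes after their values were seen. TET8, a tetraspanin of the plasma membrane and of secreted vesicles, measured 381.3 and 439.7 at 0 h, 314.1 and 389.1 at 24 h, and then 1326.2 and 929.3 at 1 h (1.54 ± 0.23; adjusted p = 0.00137). HHP2, a heptahelical membrane protein related to animal adiponectin receptors, measured 31.1 and 39.9 at 0 h, 20.1 and 26.8 at 24 h, and then 80.2 and 88.1 at 1 h (1.43 ± 0.23; adjusted p = 0.00233). SEC15B, a subunit of the exocyst, which tethers vesicles at the plasma membrane, rose from a mean of 92.2 to 172 (0.9 ± 0.18; adjusted p = 0.00808). No 1 h value of the 3 genes fell within the baseline range, and their calls ended without the 1 h array of series 1 (adjusted p 0.0621, 0.0594 and 0.215). In sulfur metabolism, APS3, an ATP sulfurylase, rose from 133 to 237 (0.82 ± 0.14; adjusted p = 0.00371), and MSRB5, which repairs oxidised methionine, from 143 to 317 (1.13 ± 0.24; adjusted p = 0.0154). Both calls ended without the 1 h array of series 1 (0.141 and 0.223), and that of MSRB5 also without that of series 2 (0.0568). Without the replicate block SEC15B was not called (0.134). HHP2 (adjusted p 0.12), SEC15B (0.095), APS3 (0.0696) and MSRB5 (0.095) were not called with the actin ratio as a covariate. The mitochondrial gene nad4, a subunit of respiratory complex I, was called through the pairing of the series. It measured 135.1 and 485.3 at 0 h, 99.5 and 787 at 24 h, and then 379.8 and 994 at 1 h, so that the groups overlapped and series 2 was higher at every one of these hours, and it was called with the series as a block (1.18 ± 0.27; adjusted p = 0.0224) and not without it (0.723). It lost its call with 4 of the 6 arrays left out in turn (adjusted p up to 0.325).

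GH9C2 had the largest fall of the named genes. GT72B1 was the other gene with a symbol among the 15 largest falls, and CYP78A9, outside them, is the faller of the cytochrome P450 list. GH9C2, of the family of endo-glucanases that trim cellulose and related glucans, measured 409.8 and 557.9 at 0 h, 553.4 and 337.5 at 24 h, and then 100.1 and 151.8 at 1 h (-1.85 ± 0.38; adjusted p = 0.012). GT72B1 (UGT72B1), which attaches glucose to phenolic compounds, measured 251.2 and 457.9 at 0 h, 398.1 and 486 at 24 h, and then 104.2 and 210.1 at 1 h (-1.36 ± 0.26; adjusted p = 0.00676). CYP78A9, a cytochrome P450 known to affect organ size, measured 55.6 and 43.6 at 0 h, 59.6 and 60.5 at 24 h, and then 25.3 and 19.1 at 1 h (-1.17 ± 0.17; adjusted p = 0.00137). Both 1 h arrays lay below all 4 baseline arrays in the 3 genes. The calls of GH9C2 and GT72B1 ended without the 1 h array of series 1 (adjusted p 0.248 and 0.201), and that of CYP78A9 was kept without either (0.0145 and 0.0299). With the actin ratio as a covariate all 3 lost their calls (adjusted p 0.14, 0.136 and 0.0632), and CYP78A9 did so without the 3 arrays of the highest actin ratio.

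Of the falls with a locus code alone, AT3G44450 was the most evenly measured. It stood at 267.5 and 237.8 at 0 h, 226.6 and 268.7 at 24 h, and then 86.6 and 89.5 at 1 h, a difference of -1.46 ± 0.12 (adjusted p = 2.91e-05) that kept its call under every alternative tried. AT1G67360 measured 418.2 and 566.6 at 0 h, 498.5 and 609.8 at 24 h, and then 157.6 and 254.9 at 1 h (-1.35 ± 0.15; adjusted p = 0.000157), and AT5G01790 measured 143.1 and 144.8 at 0 h, 171.4 and 107.6 at 24 h, and then 48.5 and 53.6 at 1 h (-1.39 ± 0.19; adjusted p = 0.000715). AT1G78070 measured 75.1 and 81.5 at 0 h, 110.5 and 105.5 at 24 h, and then 26.8 and 31.6 at 1 h (-1.54 ± 0.22; adjusted p = 0.000917). In these 4 genes the groups did not overlap. AT4G33040 and AT1G11700 differed between the series at every one of these hours. AT4G33040 measured 78.3 and 162.6 at 0 h, 90.1 and 352.4 at 24 h, and then 23.7 and 78.2 at 1 h (-1.62 ± 0.19; adjusted p = 0.00025), with the 1 h value of series 2 just below the 0 h value of series 1, and AT1G11700 measured 58.2 and 123.6 at 0 h, 57.9 and 143.3 at 24 h, and then 18.3 and 42.8 at 1 h (-1.51 ± 0.21; adjusted p = 0.000741). Both, and AT1G67360, lost their calls without the replicate block (adjusted p 0.442, 0.394 and 0.111). The remaining 7 of the 15, AT1G20070, AT3G14200, AT4G09500, AT3G56260, AT5G64550, AT1G69570 and AT2G23840, had differences from -1.78 to -1.3, and both 1 h arrays lay below the baseline in each. The 1 h means of AT1G20070, AT3G14200, AT4G09500, AT3G56260 and AT1G69570 were 8.55 to 22, under the highest bacterial control of 29.2. The size of these falls is therefore uncertain, and that of AT4G09500 ran from -2.3 to -0.53 over the alternatives. Without the 1 h array of series 1 the calls of AT1G20070 (adjusted p 0.27), AT3G14200 (0.322), AT4G09500 (0.317), AT3G56260 (0.242) and AT1G69570 (0.366) ended. AT3G14200 and AT1G69570 were also lost without the 0 h array of series 1 (0.0531 and 0.0512), and AT1G20070 without the 1 h array of series 2 (0.0546) or the series 2 array of 0 h (0.0664) or 24 h (0.0614). Without the block AT1G20070 (0.159), AT3G14200 (0.204) and AT4G09500 (0.132) were not called. AT1G20070 (adjusted p 0.205), AT3G56260 (0.146), AT1G69570 (0.102) and AT2G23840 (0.0557) were not called with the actin ratio as a covariate.

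**Figure D3:**
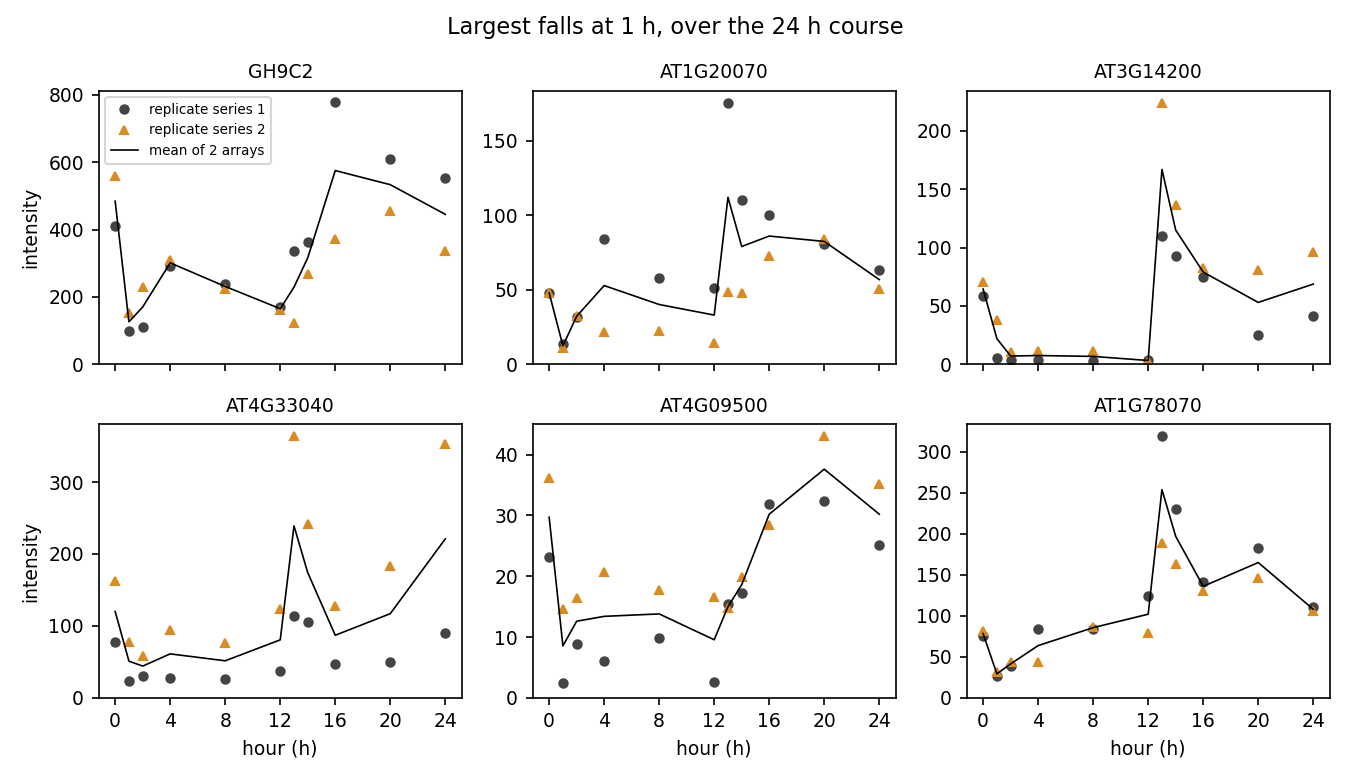
Intensity over the 24 h course for the 6 named genes with the largest falls at 1 h. Points are single arrays (circle, series 1; triangle, series 2), lines the mean of 2 arrays, and each panel has its own linear axis from 0. GH9C2 has a mean of 484 at 0 h, 126 at 1 h and 575 at 16 h, whereas AT3G14200 stays below 12 from 2 to 12 h and then reaches a mean of 167 at 13 h.

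XERICO, TIL, PDC2, MYR2, FZL and CRR41 had smaller falls, stand on no gene list and were picked from the called genes after their values were seen. No gene of the cold and abscisic acid, photosystem or chlorophyll and carotenoid lists was called at 1 h, against 4.38% of all probe sets. All of these picked genes lost their calls with the actin ratio as a covariate (adjusted p from 0.0671 to 0.336). XERICO, a RING-type ubiquitin ligase gene known to raise abscisic acid levels, measured 289.1 and 197.5 at 0 h, 279.1 and 293.7 at 24 h, and then 133.2 and 132.4 at 1 h (-0.96 ± 0.18; adjusted p = 0.00635). TIL, a lipocalin induced by temperature stress, measured 830.6 and 727.1 at 0 h, 1006.5 and 735.2 at 24 h, and then 561.5 and 431.6 at 1 h (-0.73 ± 0.12; adjusted p = 0.00371). PDC2, a pyruvate decarboxylase of fermentation, fell from a mean of 385 to 203 (-0.89 ± 0.18; adjusted p = 0.013), and MYR2, a MYB-related factor, from 52.8 to 26.8 (-0.88 ± 0.15; adjusted p = 0.00405). In these 4 genes no 1 h value reached the baseline range. For the chloroplast, FZL, which shapes thylakoids, fell from 148 to 87.8 (-0.73 ± 0.17; adjusted p = 0.0284), and CRR41, an assembly factor of the chloroplast NDH complex, from 93.8 to 57.8 (-0.66 ± 0.16; adjusted p = 0.0318). XERICO (adjusted p 0.126), TIL (0.0735) and PDC2 (0.113) lost their calls without the 1 h array of series 1, PDC2 (0.112) and MYR2 (0.0561) without that of series 2, and FZL and CRR41 with 6 and 5 of the 6 arrays left out in turn (highest adjusted p 0.297 and 0.284). Without the replicate block TIL (0.193), PDC2 (0.134), FZL (0.0538) and CRR41 (0.0627) were not called, and CRR41 was not with equal array medians (0.0637).

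Among 5 clock-linked genes 1 fell, against 1.45% lower over all probe sets. AT5G52660 went from a mean of 75 to 45.8 (-0.66 ± 0.15; adjusted p = 0.0195), a call that ended with 4 of the 6 arrays left out in turn, both 1 h arrays among them (highest adjusted p 0.247), and without the replicate block (0.106). AT5G52660 was also not called with the actin ratio as a covariate (adjusted p 0.0889). GI (GIGANTEA), which helps to time flowering and the clock and is known to peak late in the day, measured 399.8 and 477.4 at 0 h, 484.2 and 519.4 at 24 h, and then 165.8 and 206.6 at 1 h. These 1 h values were below every baseline array, but the difference of -1.32 ± 0.48 did not pass (adjusted p = 0.154). By 2 h GI was at 43.5 and 41.8 and passed (-3.34 ± 0.48; adjusted p = 0.00144), it was lowest at 8 h (mean 8.65) and highest at 20 h (657).

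No gene of the photosynthesis and carbohydrate lists passed in this hour. Over all probe sets 4.38% were called, so lists this short can hold no call without differing from the rest. Of 27 photosystem and antenna genes none was called at 1 h. The 20 plastid-encoded ones had a median difference of -0.3 and the 7 nuclear ones of -0.39, against -0.086 over all probe sets, and the largest difference was psaA, of the photosystem I core, at -0.95 (adjusted p = 0.179). For starch, none of 4 synthesis and 4 breakdown names was called. APL3, a large subunit of ADP-glucose pyrophosphorylase, the first step of starch synthesis, was lowest at -0.92 ± 0.26 (adjusted p = 0.0693) and was called lower at 2 h (-0.99; adjusted p = 0.0448), and PGM on this list is a phosphoglycerate mutase in RefSeq and not a starch enzyme. The 17 sugar transporter genes ran from -0.72 (SWEET7, a sugar exporter; adjusted p = 0.0571) to 0.24 (SWEET2; adjusted p = 0.512), and none was called. Neither were any of 3 Calvin cycle, 12 chlorophyll and carotenoid, 7 tubulin, 16 ribosomal protein and 6 cold and abscisic acid genes. Of 17 reference genes often taken as steady, UBC32, a ubiquitin-conjugating enzyme, fell (-0.47 ± 0.11; adjusted p = 0.0275), a call lost with 5 of 6 arrays left out in turn (highest adjusted p 0.204) and without the replicate block (0.117). The large enzyme families held some calls, against 4.38% of all probe sets called, 2.93% higher and 1.45% lower. UGT88A1 was the sole riser of 47 UGT glycosyltransferase genes (0.62; adjusted p = 0.0289), and CYP71B22 rose (1.07; adjusted p = 0.0402) and CYP78A9 fell among 22 cytochrome P450 genes. The calls of UGT88A1 and CYP71B22 were each lost with 5 of the 6 arrays left out (highest adjusted p 0.214 and 0.446) and without the replicate block (0.137 and 0.482).

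**Figure D4:**
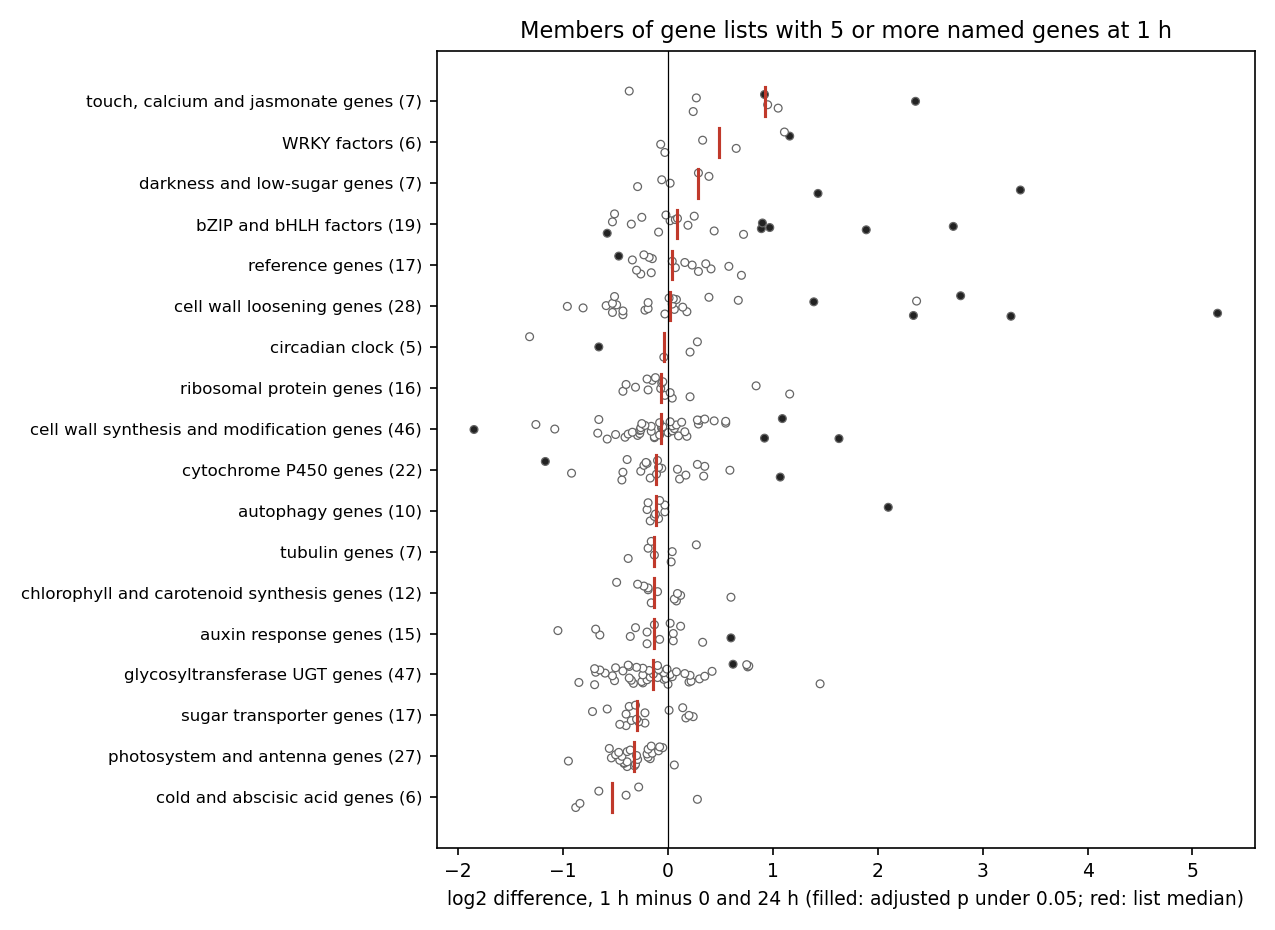
Log2 difference (1 h minus 0 and 24 h) of every measured gene of the lists with at least 5 named genes, with the number of genes in brackets. Filled points passed at an adjusted p under 0.05, open points did not, and red bars are list medians. The touch, calcium and jasmonate genes have the highest median (0.92), and the wall loosening genes spread up to 5.24 around a median of 0.02. No photosystem gene passed, against 4.38% of all probe sets.

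Much of the first hour's change was still present at 2 h. Against the same 4 baseline arrays, 1159 probe sets (5.1%) were called at 2 h, 669 higher (2.94%) and 490 lower (2.15%). Of the 667 risers at 1 h, 369 (55.3%) were also called higher at 2 h, which is 55.2% of the 2 h rises, and their median log2 difference went from 1.15 to 0.82 over all 667. Of the 329 fallers, 138 (41.9%) were also called lower, 28.2% of the 2 h falls, and the median over all 329 went from -0.76 to -0.53. Both comparisons use the same 4 baseline arrays, so this overlap is not independent. In a pair of comparisons with no array in common, 394 probe sets were called higher at 1 h against 0 h (1.73%), and 167 of them (42.4%) were higher at 2 h against 24 h, which called 934 (4.11%) of all probe sets, 2.18% higher and 1.93% lower. Of 109 called lower at 1 h against 0 h (0.479%), 39 (35.8%) were lower at 2 h against 24 h. The 167 are 33.7% of the 496 rises at 2 h against 24 h, and the 39 are 8.9% of its 438 falls. Without the 2 h array of series 1 the count at 2 h against 0 and 24 h was 115, and the number called at both 1 h and 2 h was 94 in place of 507. That number was 136 without the 1 h array of series 1 and 303 without the 0 h array of series 1, and the 2 h count itself was 655 without the latter and 754 without the 24 h array of series 1. The 503 calls of 1 h against 0 h were 104 without the 1 h array of series 1, 166 and 195 without the 0 h arrays of series 1 and series 2, and the 934 of 2 h against 24 h were 94 without the 2 h array of series 1 and 412 and 205 without the 24 h arrays. Fitted on its own 4 arrays, 2 h against 24 h gave 0 calls, so this overlap rests on the spread estimated over all 22 arrays.

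Of the named genes, AT3G15450, AT1G19020, AT5G61590, ATG8E and AKINBETA1 were about as high at 2 h as at 1 h. AT3G15450 differed from baseline by 3.36 at 1 h and 3.24 at 2 h, AT1G19020 by 2.93 and 2.98, ATG8E by 2.1 and 2.07, AT5G61590 by 2.76 and 2.31, and AKINBETA1 by 1.43 and 1.95. EXO lay at 5.24 and 3.15, and its difference between 2 h and 1 h did not pass (-2.09 ± 0.41; adjusted p = 0.0959). Others were back near the baseline. BZIP53 measured 269.4 and 259.6 at 2 h (0; adjusted p = 1), EXLA2 3.1 and 14.3 (0.53; adjusted p = 0.565) and CSA1, named for shade avoidance, 89.3 and 96.7 (0.01; adjusted p = 0.978). CSA1 had risen at 1 h from a mean of 92.5 to 147 (0.65 ± 0.14; adjusted p = 0.0131). That call was lost with the actin ratio as a covariate (0.156), without the replicate block (0.145) and without the 1 h array of series 1 or of series 2. XERICO, which had fallen, was at 300.3 and 258.3 (0.09; adjusted p = 0.861), and AT3G56260 at 56.5 and 39.8 (-0.1; adjusted p = 0.924). A p that misses the threshold at 2 h does not by itself show a return to the baseline. AT3G14200 measured 5.8 and 38.3 at 1 h against 3.8 and 10.3 at 2 h, and AT5G01790 48.5 and 53.6 against 39.4 and 40, both still below every baseline array.

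**Figure D5:**
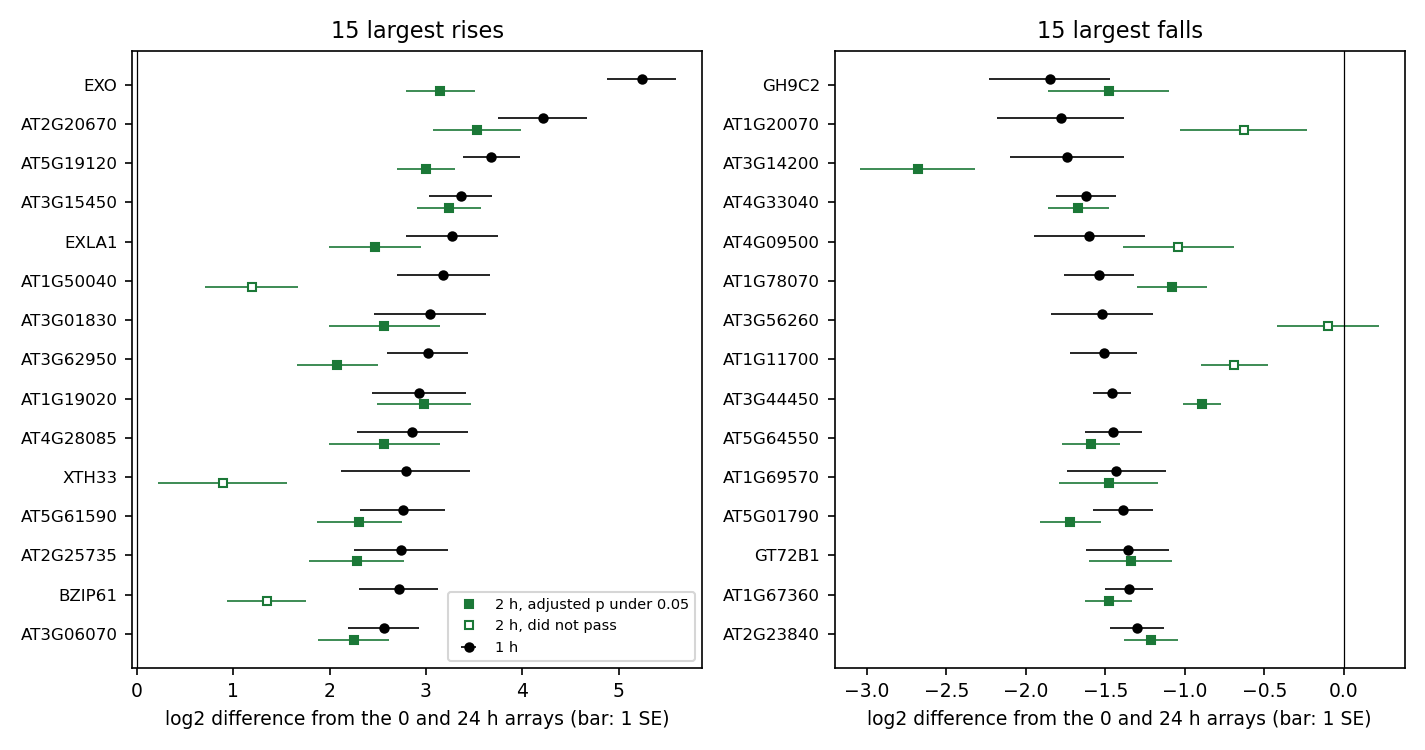
Log2 difference from the 4 arrays at 0 and 24 h for the 15 largest rises (left) and falls (right) at 1 h, with 1 SE from the fit. Circles are 1 h, squares 2 h, filled where the 2 h difference passed at an adjusted p under 0.05. All 15 rises are still above 0 at 2 h, 3 of them without passing, and AT3G56260 is back at -0.1.

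A direct test of 2 h against 1 h called 19 probe sets (0.0835%), 2 higher (0.00879%) and 17 lower (0.0747%), and 1756 (7.72%) had an unadjusted p under 0.05. Among them, 11 of the 667 risers had come down again and 2 of the 329 fallers had come up, while 3 fallers had gone further down. The risers and fallers were chosen on the same 1 h arrays, so a return toward the baseline is favoured by that choice. Of the named genes among them, AT1G04770 had the largest difference between 1 h and 2 h. It measured 80.4 and 93.3 at 0 h, 86.4 and 86.9 at 24 h, and then 431.8 and 371.3 at 1 h and 35.2 and 83.9 at 2 h, so that the 2 h arrays were far below both 1 h arrays and no longer above the baseline (-2.78 ± 0.37 from 1 to 2 h; adjusted p = 0.0117). AT2G47440 measured 221.9 and 309.9 at 0 h, 190.8 and 303.4 at 24 h, and then 554.6 and 908.8 at 1 h and 219.7 and 283.8 at 2 h, again with no overlap between the 1 h and 2 h arrays (-1.49 ± 0.17; adjusted p = 0.00324). AT5G40910 and AT1G68670 also came down (-1.05 ± 0.17 and -0.97 ± 0.16; both adjusted p = 0.0388). AT1G79160 fell and recovered, from 48.1 and 37.2 at 1 h to 129.5 and 82 at 2 h (1.21 ± 0.2; adjusted p = 0.0431). An unnamed probe set was called higher at 1 h and lower at 2 h than the baseline. It measured 122.6 and 149.5 at 0 h, 95.3 and 190.1 at 24 h, and then 208.6 and 383.5 at 1 h and 29.2 and 56.7 at 2 h (-2.68 ± 0.3; adjusted p = 0.00324), and of the 667 risers it was the 1 called lower at 2 h. The count of 19 was 6 and 2 without the 1 h array of series 1 and of series 2, and 12 without the 2 h array of series 1. It was 1 without the replicate block, 1 with the actin covariate, 1 without the 3 arrays of the highest actin ratio and 0 with the compared arrays alone, so these single-gene differences between 2 h and 1 h rest on the fit over all arrays with the block.

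Of the values given for the first-hour genes later in the cycle, their differences from the baseline and their hour of highest mean use the arrays that chose them and are a description, and 13 h against 12 h and 4 and 8 h against 16 and 20 h use other arrays. Of the 667 risers, 293 had their highest mean of the 11 time points at 1 h, 133 at 12 h and 108 at 13 h. Their median difference from baseline was 1.15 at 1 h, 0.52 at 4 h, 0.69 at 12 h, 0.61 at 13 h and 0.1 at 20 h. That of the 329 fallers was -0.76 at 1 h, -0.48 at 4 h, -0.49 at 12 h and -0.05 at 20 h. In 13 h against 12 h, the same hour 12 h later in the cycle, 163 of the 667 risers (24.4%) were called lower and 79 (11.8%) higher, against 3.4% and 2.45% of all probe sets. Of the 329 fallers, 47 (14.3%) were higher at 13 h and 6 (1.82%) lower. In 4 and 8 h against 16 and 20 h, 224 of the risers (33.6%) were higher and 17 (2.55%) lower, against 6.45% and 5.86% of all, and of the fallers 12 (3.65%) were higher and 127 (38.6%) lower. EXO, EXLA1 and XTH33 were high at both 1 h and 13 h, with means at 13 h of 843, 745 and 166 against 196, 21.6 and 8.25 at 12 h. GT72B1 and AT3G44450, which fell at 1 h, had means of 808 and 666 at 13 h against 167 and 85.2 at 12 h. These 2 comparisons were added after the data were seen. The 1331 calls of 13 h against 12 h became 633 without the 12 h array of series 2 and 597 without the 13 h array of series 2, and the 2799 of the other comparison became 1682 without the 16 h array of series 1. Without the replicate block they were 665 and 1573.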

How the data were processed

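Leaf RNA was labelled with biotin and hybridised to Affymetrix ATH1 arrays, per the labels' protocols. The authors' deposited table holds 1 linear intensity per probe set and array. With 2% trimmed from either end, each of the 22 arrays averaged 100, so they had been scaled. The sources used here do not name the software. Hours came from the source names, with which the age tag disagrees at 8 and 16 h. Of 22746 probe sets tested (64 controls were left out), the platform annotation named 1 gene for 13513, several for 503 and none for 8730. Of 13355 genes, 13285 matched RefSeq (TAIR10.1), the source of symbols.

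Values were transformed to log2(intensity + 4), which understates changes of low genes, and all 22 arrays were fitted with limma 3.58.1 in R 4.3.3 (lmFit, then eBayes with an intensity trend), using a mean for each time point, the replicate series as a block and 10 residual degrees of freedom. Tests were two-sided, with Benjamini-Hochberg adjustment over all 22746 probe sets, and adjusted p-values come from limma. Errors after ± are the fit's SE. Replicate differences correlated over all 55 pairs of time points (r from 0.136 to 0.451, median 0.288), the numbers coming from the labels. Replicates are biological per the labels. The genes named first were 15 rises and 15 falls, the largest among called probe sets of 1 gene (its most intense) that moved alike in both series and whose higher mean passed 29.2, and up to 6 called members of each gene list. Other called genes with a symbol, and calls of 2 h against 1 h, were chosen for naming after their values were seen. The members and gene lists were chosen with earlier results of these data known. On simulated data for 1 h against 0 and 24 h (22746 probe sets), 51 of 100 changes of log2 1 and 92 of 100 of log2 2 were recovered, with 6 false calls. The changes were placed in probe sets above the median intensity, and the noise was independent, with no series effect. These rates therefore do not cover low-intensity probe sets or calls that rest on the block. Precision is limited by the few arrays. Alternatives were the pseudocount, a filter on low values, the scaling, the block, the trend, the actin ratio, the baseline and each array left out. No sequence is printed.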

Additional observations from a re-analysis of the deposited data

Results flagged for a closer look

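Among the 95 named genes, 5 had 1 of the 4 arrays at 0 and 24 h far from the other 3, by Dixon's criterion for 4 values, which chance meets in about 1 of 20 groups. AT1G20070 measured 63.5 on the 24 h array of series 1, and 47.9 to 50.2 on the others. AKINBETA1 measured 93.6 on that same array, and 65.7 to 67.9 on the others. EXLA2 measured 9.9 on the 0 h array of series 2, and 2.2 to 2.8 on the others, all below the highest bacterial control. MSRB5 measured 151.4 on that array against 138.9 to 140.7, and XERICO 197.5 against 279.1 to 293.7. In all 5 genes both 1 h arrays lay outside the range of all 4 baseline arrays.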

How the results depend on the processing

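For 1 h against 0 and 24 h, the 996 calls stayed within 1.5 times under both other pseudocounts, the filter, both other scalings, eBayes without a trend, the 6 compared arrays alone and the 24 h baseline. They were 436 without the replicate block, 289 with the actin ratio as a covariate, 530 without the 3 arrays of the highest actin ratio (chosen after seeing the data), 503 with 0 h alone as baseline and 208 to 747 with 1 array left out. For 2 h against 0 and 24 h, the 1159 calls were 440 without the replicate block, 612 with the compared arrays alone, 676 without the 3 arrays and 115 to 1191 with 1 array left out. The 19 calls of 2 h against 1 h were 41 among the upper 60% of probe sets, 7 without a trend, 1 without the replicate block, 1 with the actin covariate, 1 without the 3 arrays, 0 with the compared arrays alone and 2 to 20 with 1 array left out. The 503 calls of 1 h against 0 h were 178 without the replicate block, 67 with the actin covariate, 287 with the compared arrays alone and 104 to 425 with 1 array left out. The 934 calls of 2 h against 24 h were 277 without the replicate block, 568 with the actin covariate, 0 with the compared arrays alone, 149 without the 3 arrays and 94 to 1047 with 1 array left out, and 24 h against 0 h gave 0 to 25. The 507 probe sets called at both 1 h and 2 h were 198 without the replicate block, 181 with the actin covariate, 274 without the 3 arrays and 94 to 490 with 1 array left out. With equal array medians, higher calls were 67.8% in place of 57.7% at 2 h against 0 and 24 h, 71.4% in place of 53.1% at 2 h against 24 h and 78.8% in place of 65.3% at 1 h against 24 h. No difference at 1 h of the 95 named genes changed sign under the alternatives tried, but the balance of calls of 2 h against 24 h, 496 higher and 438 lower, was 174 and 238 without the 24 h array of series 1 and 47 and 47 without the 2 h array of series 1. Of the 95 named genes 15 kept their call under every alternative. Fewer arrays or degrees of freedom are part of leaving out arrays, and for the other changes the cause was not tested. Probe sets near the bacterial controls, 23 of the risers and 40 of the fallers with both means under 29.2, are limited by signal over background.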
